A study of Sus scrofa with 6 samples.

Results

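Genes of creatine synthesis, creatine transport and phosphate transfer were examined in the longissimus dorsi, a back muscle, of UCP1 KI and WT pigs. The 9 genes listed were *GATM*, *GAMT*, *SLC6A8*, *CKM*, *CKMT2*, *CKB*, *AK1*, *AMPD1* and *AMPD3*. They were listed by gene name, with earlier results of these data known, and 8 of them were found by their Ensembl symbol among the 30476 genes of the count table. *CKB*, the creatine kinase of brain and smooth muscle, could not be matched to a row and was not analysed here. The KI pigs carried *UCP1*, the uncoupling protein of thermogenic fat, as a knock-in restricted to adipocytes, and the WT pigs did not. Both groups were 6 months old, with 3 libraries each (n = 3). The sources used here name neither the promoter that drives the knock-in nor the sex, breed or litter of the pigs, and do not say whether the KI pigs came from 1 clone.

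Muscle fibres keep ATP constant during contraction by passing phosphate between creatine and ADP. Creatine is made in successive steps, by *GATM* mainly in kidney and by *GAMT* mainly in liver, and enters muscle through the transporter *SLC6A8*. Creatine kinases then work in the cytosol (*CKM*) and between the mitochondrial membranes (*CKMT2*). Adenylate kinase (*AK1*) recovers ATP from ADP with AMP as the other product, and AMP deaminases (*AMPD1*, the muscle form, and *AMPD3*, the form first described in red blood cells) turn AMP into IMP. *AMPD3* is also known to rise in denervated and wasting muscle.

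Total counts per library lay between 30220951 and 35066624, and values are given as CPM (counts divided by library size, with TMM scaling factors), which are not divided by gene length, so levels are compared between pigs and not between genes. All 7 matched genes that define skeletal muscle fibres, among them *ACTA1*, *NEB* and *DES*, were abundant in every library, with summed levels of 59796 to 99573 CPM in KI and 79403 to 115906 CPM in WT pigs. A pair of libraries stood apart. In KI replicate 2, the summed level of 8 fast fibre genes was 16838 CPM, against 35308 to 88245 CPM in the others, and in WT replicate 2 the summed level of 5 adipocyte genes was 282 CPM, against 42.8 to 87.3 CPM. KI replicate 2 had the lowest value of all 6 pigs for 5 of the 8 creatine and AMP genes.

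Of the 8 genes, 1 (12.5%) passed an unadjusted p under 0.05 together with an absolute log2 fold change above 0.5 in edgeR's quasi-likelihood test. It was *AMPD3*, which was higher in KI pigs. The same limits were passed by 8.19% of the 13402 genes tested, 3.84% being higher and 4.34% lower in KI pigs, so the count of 1 in 8 lies near the background. With library size as the only scaling, 82.7% of the genes past the limits were higher, in place of 46.9%. None of the 8 genes had values that separated the KI pigs from the WT pigs, whereas 15.3% of all genes tested did. After Benjamini-Hochberg adjustment, edgeR called 0 of the genes tested (0%) at 0.05, where 1100 had an unadjusted p under 0.05 and DESeq2 called 127 on the same genes. The smallest adjusted p among the 8 genes was 0.603 with edgeR and 0.242 with DESeq2 on the same genes, both for *AMPD3*. The median log2 fold change of the 8 genes was -0.04, beside -0.02 over all genes tested. It was 0.18 with library size only, a scaling that moved the median of all genes to 0.24.

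**Figure D1:**
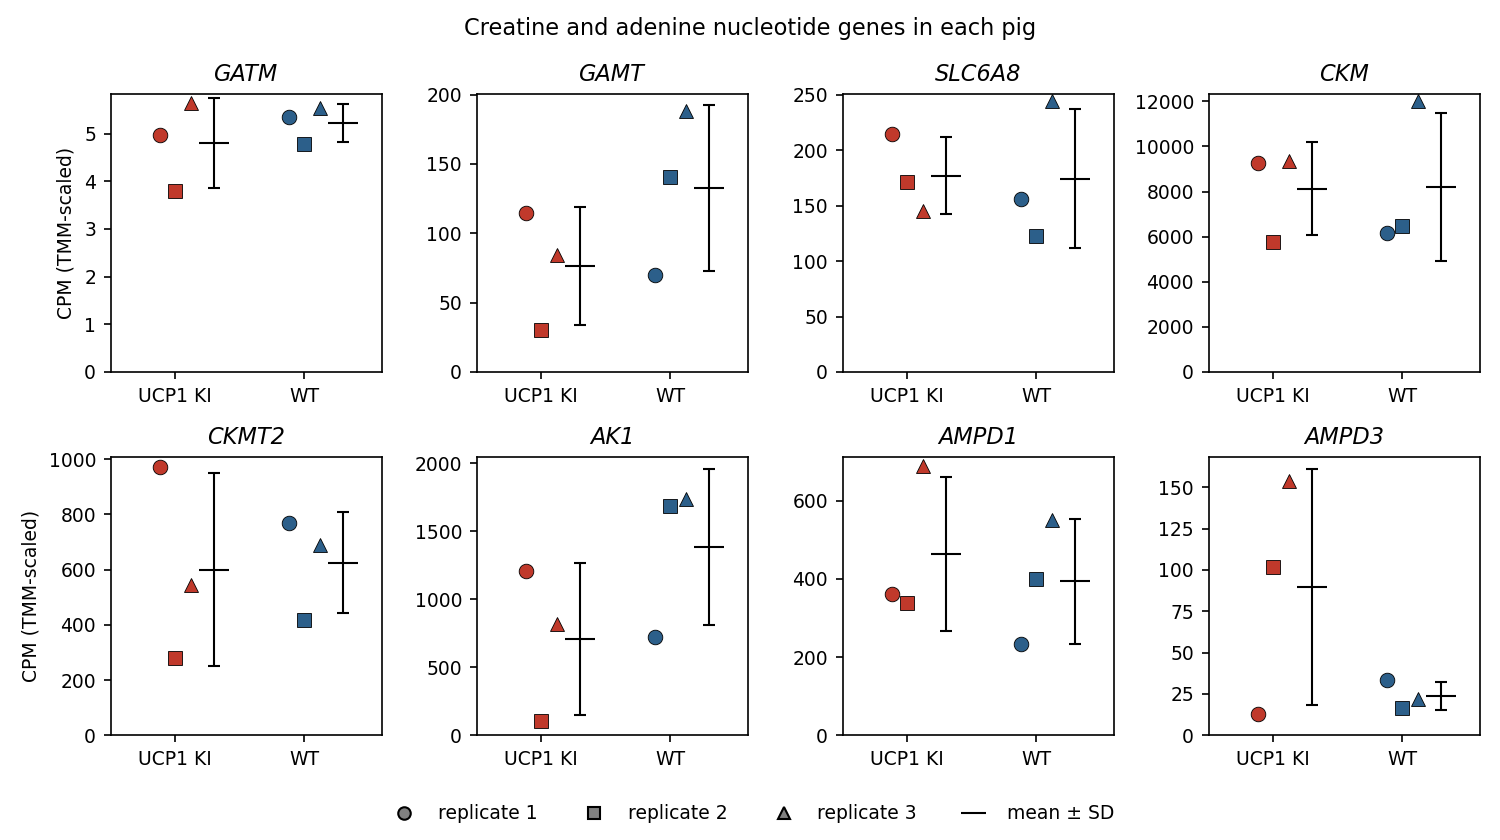
CPM of the 8 genes (vertical axes, each from 0) in the 3 UCP1 KI pigs (red) and the 3 WT pigs (blue), with 1 symbol per replicate number and the mean ± SD of each group in black. The groups overlap in every panel, and KI replicate 1 lies below all WT pigs for *AMPD3* while KI replicates 2 and 3 lie above them.

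*GATM* (ENSSSCG00000004672, Sscrofa11.1 chr1:126361968-126378705), which makes the creatine precursor guanidinoacetate from arginine and glycine, was measured at 4.98, 3.79 and 5.64 CPM in KI replicates 1 to 3 and at 5.35, 4.78 and 5.54 CPM in WT replicates 1 to 3. These rest on 131 to 213 counts per library, so the gene was detected in every pig at a low level. The means were 4.80 ± 0.940 CPM in KI and 5.22 ± 0.393 CPM in WT pigs (SD, n = 3 each). The log2 fold change of -0.12 (SE 0.27) had a 95% interval of -0.76 to 0.51 and an adjusted p of 0.915 from edgeR. *GATM* was the least variable of the 8 genes, with coefficients of variation of 19.6% in KI and 7.52% in WT pigs. Its sign changed to 0.12 when libraries were scaled by size alone, and to 0.013 without KI replicate 2.

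*GAMT* (ENSSSCG00000023142, Sscrofa11.1 chr2:77076566-77079751), which methylates guanidinoacetate to creatine, was at 114, 30.3 and 84.0 CPM in KI replicates 1 to 3 and at 69.7, 141 and 188 CPM in WT replicates 1 to 3. The highest values were those of WT replicates 2 and 3, and WT replicate 1 was below KI replicates 1 and 3. Group means were 76.3 ± 42.6 CPM in KI and 133 ± 59.8 CPM in WT pigs (SD, n = 3 each). The log2 fold change was -0.80 (SE 0.53, 95% interval -2.04 to 0.43, adjusted p = 0.701 from edgeR), within the spread between pigs. It was -0.42 without KI replicate 2 and -0.46 without WT replicate 3, but -1.21 without KI replicate 1 and -1.11 without WT replicate 1, none past the limits, and its sign was the same under all 14 other settings.

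*SLC6A8* (ENSSSCG00000012771, Sscrofa11.1 chrX:124435282-124452182), the creatine transporter of the cell membrane, was at 214, 172 and 145 CPM in KI replicates 1 to 3 and at 156, 122 and 245 CPM in WT replicates 1 to 3. WT pigs held both the lowest and the highest value. The means nearly coincided, at 177 ± 34.9 CPM in KI and 174 ± 63.0 CPM in WT pigs (SD, n = 3 each). A log2 fold change of 0.02 (SE 0.32) had a 95% interval of -0.73 to 0.77, which covers folds from 0.605 to 1.70, with an adjusted p of 0.987 from edgeR. Leaving out a pig moved it between -0.18 and 0.35, and with upper quartile factors it was -0.0052.

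*CKM* (ENSSSCG00000036132, Sscrofa11.1 chr6:51704021-51716935) is the cytosolic creatine kinase of muscle. KI replicates 1 to 3 were at 9259.7, 5748 and 9373 CPM, and WT replicates 1 to 3 at 6146, 6466 and 11991 CPM. Pigs of both groups were spread over the same range, with WT replicate 3 the highest and KI replicate 2 the lowest. The means were 8127 ± 2061 CPM in KI and 8201 ± 3286 CPM in WT pigs (SD, n = 3 each). The log2 fold change of -0.01 (SE 0.44) had a 95% interval of -1.03 to 1.001 and an adjusted p of 0.994 from edgeR. The depth of *CKM* was not the limit here, with 177062 counts or more in each library, but the spread between pigs leaves folds from 0.491 to 2.001 inside the interval. The sign changed to 0.23 with library size only, to 0.0038 with all genes that had any count, to 0.18 without KI replicate 2 and to 0.37 without WT replicate 3.

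*CKMT2* (ENSSSCG00000014128, Sscrofa11.1 chr2:89796470-89830293), the mitochondrial creatine kinase of striated muscle, was at 972, 279.9 and 544 CPM in KI replicates 1 to 3 and at 768, 418 and 689.8 CPM in WT replicates 1 to 3. Both the highest and the lowest value belonged to KI pigs, whose coefficient of variation was 58.4%, against 29.4% in WT pigs. The means of 599 ± 349 CPM in KI and 625 ± 184 CPM in WT pigs (SD, n = 3 each) gave a log2 fold change of -0.06 (SE 0.48, 95% interval -1.17 to 1.04, adjusted p = 0.976 from edgeR). This value ran from -0.60 to 0.28 with each pig left out, and it was 0.086 with library size only.

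Within a library, the ratio of the counts of a gene pair does not depend on how libraries are scaled against each other. Counts of *CKMT2* per 100 counts of *CKM* were 10.5, 4.87 and 5.80 in KI replicates 1 to 3 and 12.5, 6.46 and 5.75 in WT replicates 1 to 3. Replicate 1 of either group was above the rest. The log2 ratio differed by -0.22 between KI (-3.91 ± 0.581, SD, n = 3) and WT pigs (-3.69 ± 0.603, SD, n = 3), less than the spread between pigs (exact permutation test, two-sided, p = 0.6). With 3 pigs in each group this test cannot give a p below 0.1. After adjustment over the 4 ratios tested, the p of the exact permutation test was 0.6. The sign of this difference turned with a pig left out, to 0.011 without KI replicate 2 and 0.13 without WT replicate 1, and it was -0.54 without KI replicate 1, -0.11 without KI replicate 3, -0.35 without WT replicate 2 and -0.43 without WT replicate 3.

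*AK1* (ENSSSCG00000005627, Sscrofa11.1 chr1:268355032-268365659), the cytosolic adenylate kinase, varied most between KI pigs after *AMPD3*. It was at 1209 CPM in KI replicate 1, 107 CPM in KI replicate 2 and 818 CPM in KI replicate 3, and at 721, 1686 and 1739 CPM in WT replicates 1 to 3. KI replicate 2 had 3804 counts, where the other 5 libraries had between 26153 and 52119. The group means, 711 ± 559 CPM in KI and 1382 ± 573 CPM in WT pigs (SD, n = 3 each), gave a log2 fold change of -0.96 (SE 0.77, 95% interval -2.76 to 0.84, adjusted p = 0.758 from edgeR). It was -0.45 without KI replicate 2 and -1.58 without KI replicate 1. Counts of *AK1* per 100 counts of *CKM* were 13.1, 1.86 and 8.72 in KI and 11.7, 26.1 and 14.5 in WT replicates 1 to 3, with a difference in the log2 ratio of -1.46 (two-sided exact permutation test, p = 0.2, adjusted p = 0.533 over 4 ratios). This difference was -0.62 without KI replicate 2 and -2.03 without KI replicate 1.

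The summed level of genes of fast fibres, the glycolytic fibres that make up most of this muscle, ranked the pigs as *AK1* and *GAMT* did. Of 12 fast fibre symbols 8 were matched, and *MYH1*, *MYH2*, *MYH4* and *MYLPF* were not, so the sum lacks these myosin genes. From the lowest to the highest pig, the order was KI replicate 2, WT replicate 1, KI replicate 3, KI replicate 1, WT replicate 2 and WT replicate 3 for *AK1*, for *GAMT* and for the summed level of the 8 fast fibre genes. Taken singly, 1 of the 8 fast fibre genes, *TNNI2*, had this order, as did 35 (0.261%) of all genes tested. The fast fibre sums were 58552, 16838 and 56814 CPM in KI replicates 1 to 3 and 35308, 82949 and 88245 CPM in WT replicates 1 to 3, and 0 of the 8 genes, *MYL1*, *TNNT3*, *TNNI2*, *TNNC2*, *ATP2A1*, *ACTN3*, *CASQ1* and *PVALB*, passed the limits. The sums of 7 slow fibre genes ran in another order, from 4404 CPM in WT replicate 2 to 18406 CPM in WT replicate 1, with KI pigs between 7483 and 12952 CPM. Of the 10 slow fibre symbols, *MYH7*, *TPM3* and *CASQ2* were not matched. In bulk muscle, fewer fibres of a type and less RNA per fibre cannot be told apart.

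Relative to the fast fibre genes of the same library, a ratio added after the values were seen, *GAMT* was nearly level, at 0.195%, 0.180% and 0.148% of their counts in KI replicates 1 to 3 and at 0.197%, 0.169% and 0.214% in WT replicates 1 to 3. The coefficient of variation of *GAMT* on this scale was 13.9% in KI and 11.5% in WT pigs, beside 55.8% and 45.0% in CPM. *AK1* was at 2.04%, 2.03% and 1.97% in WT replicates 1 to 3, a coefficient of variation of 1.92%, and at 2.07%, 0.634% and 1.44% in KI replicates 1 to 3. KI replicate 1 was thus with the WT pigs, and KI replicates 2 and 3 were below all of them. The differences in the log2 ratio, -0.15 for *GAMT* and -0.71 for *AK1*, had exact two-sided permutation p values of 0.4 each (adjusted p = 0.571 over the 8 genes set against the fast fibre genes). The difference of *AK1* was -0.22 without KI replicate 2 and -1.08 without KI replicate 1. That of *GAMT* was -0.038 without KI replicate 3 and -0.077 without WT replicate 3, and -0.24 without either KI replicate 1 or WT replicate 2. *AK1* and *GAMT* were picked for this description by their shared order, and the other 6 genes were not level on this scale. The differences in the log2 ratio were 0.76 for *CKM*, 0.54 for *CKMT2*, 0.60 for *GATM*, 0.80 for *SLC6A8*, 0.98 for *AMPD1* and 2.07 for *AMPD3*. The groups overlapped, with exact permutation p values of 0.3 to 0.6 (adjusted p = 0.571 to 0.6). All 6 ratios share 1 denominator, in which 7 of the 8 fast fibre genes had a negative log2 fold change (median -0.58). In CPM, the log2 fold changes of the 6 genes were -0.01, -0.06, -0.12, 0.02, 0.23 and 1.90 in the same order. A difference above 0 on this scale is thus not by itself a rise of the gene in KI pigs. With each pig left out, the differences in the log2 ratio stayed above 0, a sign that the shared denominator gives to all 6 alike, but moved widely. For *CKM* the range was 0.40 without KI replicate 2 to 1.01 without WT replicate 1. For *CKMT2* it was 0.084 without WT replicate 2 to 1.14 without WT replicate 1, and for *GATM* 0.17 without KI replicate 2 to 1.04 without WT replicate 1. The lowest values were again those without KI replicate 2 for *SLC6A8* (0.22, and up to 1.22 without KI replicate 3), for *AMPD1* (0.57, and up to 1.42 without KI replicate 1) and for *AMPD3* (1.08, and up to 3.49 without KI replicate 1). Without WT replicate 2 the differences were 0.43 for *CKM*, 0.34 for *GATM* and 0.38 for *SLC6A8*. Among WT pigs the coefficient of variation was larger than in CPM for *GATM* (58.2% against 7.52%), *CKMT2* (77.6% against 29.4%), *SLC6A8* (51.2% against 36.1%) and *AMPD3* (89.6% against 35.5%), and smaller for *AMPD1* (16.0% against 40.4%) and *CKM* (37.4% against 40.1%). Among KI pigs it was larger for *GATM* (56.4% against 19.6%), *SLC6A8* (75.5% against 19.7%), *AMPD3* (98.0% against 79.9%), *AMPD1* (54.6% against 42.5%) and *CKM* (46.9% against 25.4%), and smaller for *CKMT2* (28.5% against 58.4%).

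**Figure D2:**
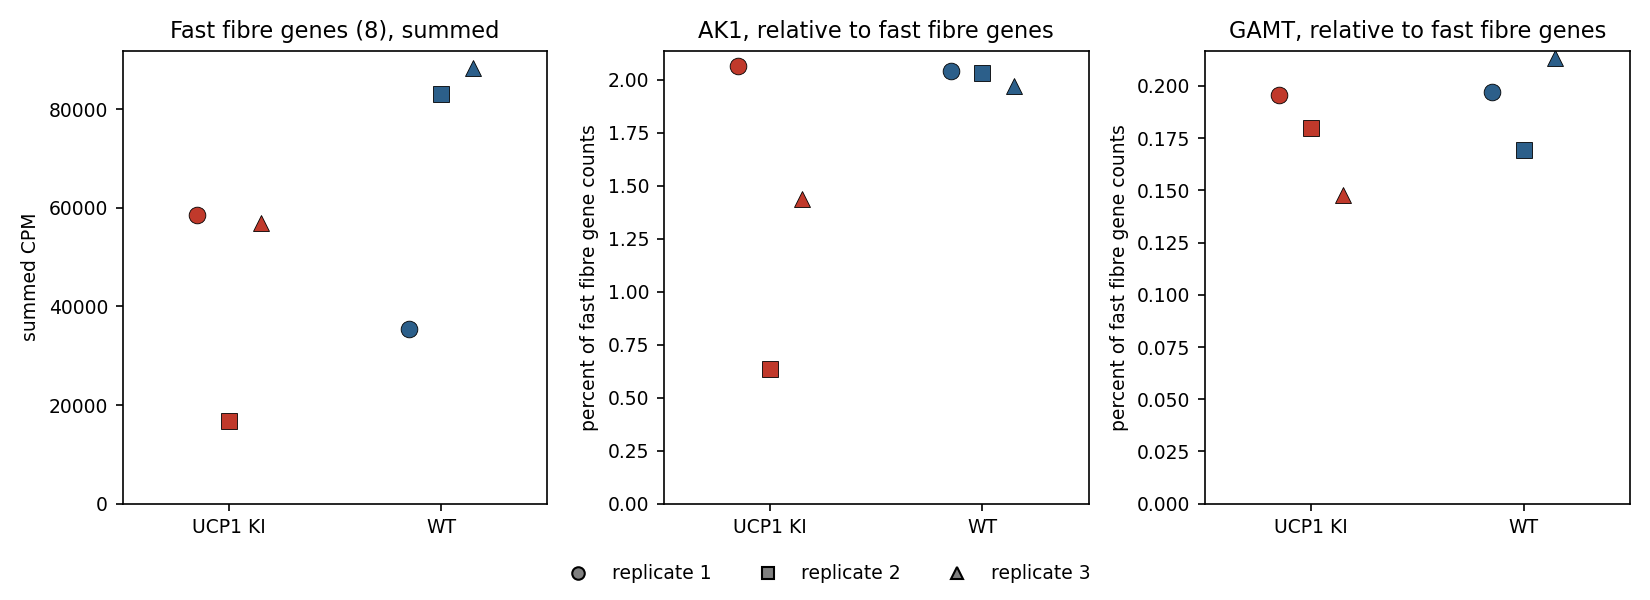
Summed CPM of 8 fast fibre genes (left), and the counts of *AK1* (middle) and *GAMT* (right) as percent of the fast fibre gene counts of the same library, in UCP1 KI pigs (red) and WT pigs (blue), with 1 symbol per replicate number. *AK1* lies between 1.97% and 2.07% in the WT pigs and KI replicate 1, and at 1.44% and 0.634% in KI replicates 3 and 2.

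*AMPD1* (ENSSSCG00000006754, Sscrofa11.1 chr4:105868834-105892171), the AMP deaminase of adult muscle, was at 361, 338 and 689 CPM in KI replicates 1 to 3 and at 232, 399 and 550.0 CPM in WT replicates 1 to 3. KI replicate 3 was the highest pig and WT replicate 1 the lowest. From means of 463 ± 197 CPM in KI and 394 ± 159 CPM in WT pigs (SD, n = 3 each), the log2 fold change was 0.23 (SE 0.42, 95% interval -0.74 to 1.21, adjusted p = 0.893 from edgeR). It was -0.17 without KI replicate 3 and -0.04 without WT replicate 1.

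*AMPD3* (ENSSSCG00000022492, Sscrofa11.1 chr2:49026695-49084982) was at 12.6 CPM in KI replicate 1, 102 CPM in KI replicate 2 and 154 CPM in KI replicate 3. WT replicates 1 to 3 were at 33.4, 16.7 and 21.9 CPM. KI replicates 2 and 3 were above every WT pig, but KI replicate 1 was the lowest of the 6, so the groups overlapped (exact permutation test on log2(CPM + 1), two-sided, p = 0.4). The means were 89.5 ± 71.5 CPM in KI and 24.0 ± 8.52 CPM in WT pigs (SD, n = 3 each). The log2 fold change of 1.90 (SE 0.77), or 3.73-fold with a 95% interval of 1.09-fold to 12.8-fold, was tested by edgeR at an unadjusted p of 0.0392 and an adjusted p of 0.603. With KI replicate 1 left out, edgeR gave 2.42 (unadjusted p = 0.000482). Without any one of the other 5 pigs it no longer passed the limits, with values from 1.24 without KI replicate 3 to 2.19 without WT replicate 1. With the replicate number as a further term in edgeR it was 1.54 (unadjusted p = 0.171), also short of the limits.

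The share of *AMPD3* counts relative to *AMPD1* split the pigs in the same way. Per 100 counts of *AMPD1*, *AMPD3* had 3.49, 30.2 and 22.3 counts in KI replicates 1 to 3 and 14.4, 4.20 and 3.97 counts in WT replicates 1 to 3. KI replicates 2 and 3 were the highest, WT replicate 1 followed, and KI replicate 1 was the lowest pig. The difference in the log2 ratio was 1.10 (two-sided exact permutation test, p = 0.4, adjusted p = 0.533 over 4 ratios). It was 0.51 without KI replicate 2, 0.72 without KI replicate 3, 2.06 without KI replicate 1 and 1.70 without WT replicate 1. For *GAMT* against *GATM*, the fourth ratio, the log2 ratio was 3.81 ± 0.764 (SD, n = 3) in KI and 4.56 ± 0.746 (SD, n = 3) in WT pigs, a difference of -0.75 (exact permutation p = 0.3, adjusted p = 0.533). Leaving out KI replicate 2 gave -0.35, WT replicate 3 gave -0.48 and WT replicate 1 gave -1.18.

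In the RefSeq annotation of Sscrofa11.1, *AMPD3* overlaps 2197 bases of a neighbouring gene, *RNF141* (ENSSSCG00000036546, chr2:48985519-49028891), a ring finger protein. Whether the counting used strand is not given in the sources used here, so reads from the shared stretch cannot be assigned with certainty. *RNF141* was at 16.0, 31.4 and 39.0 CPM in KI replicates 1 to 3 and at 14.004, 10.8 and 14.9 CPM in WT replicates 1 to 3, without overlap between the groups. KI replicates 2 and 3 were thus the highest pigs for both genes. The log2 fold change of *RNF141* was 1.12 (SE 0.35), with an unadjusted p of 0.0136 and an adjusted p of 0.583 from edgeR. *AMPD3* had 389, 3638 and 5808 counts in KI replicates 1 to 3 and 1210, 458 and 655 in WT replicates 1 to 3. In the same order, *RNF141* had 495, 1119 and 1471 counts in KI and 508, 295 and 446 in WT pigs. These totals do not give the reads of the shared stretch. The part of shared reads in the result for *AMPD3* was not tested.

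Markers of other cell types were set beside *AMPD3*. Those of red blood cells, where this deaminase is abundant, had summed levels over 3 matched genes of 75.8, 11.4 and 73.2 CPM in KI replicates 1 to 3 and of 104 to 179.5 CPM in WT pigs. *HBB* made up most of this sum, *SLC4A1* was at 0 counts in 5 of the 6 libraries, and 0 of the 2 genes tested passed the limits. Leukocyte markers (5 of 5 genes) were at 33.8, 49.4 and 17.8 CPM in KI replicates 1 to 3 and 17.1 to 33.2 CPM in WT pigs. Of the 2 pigs highest in *AMPD3*, KI replicate 2 was the highest in leukocyte markers and KI replicate 3 near the lowest. Among these markers 1 gene, *CD3E*, was past the limits and higher in KI pigs. Fibroblast markers were lower in KI pigs, at 235 to 435 CPM against 742 to 1187 CPM, with 4 of 6 genes past the limits, beside 8.19% of all genes tested. These were the collagens *COL1A1*, *COL1A2* and *COL3A1* (log2 fold changes of -1.86, -1.70 and -1.57) and *LUM* (-0.57). *DCN* (-0.39) and *PDGFRA* (-0.08) were not past the limits. Endothelial markers (4 genes, of which *TEK* was past the limits and higher in KI pigs) were at 273 to 508 CPM in KI and 251 to 457 CPM in WT pigs, Schwann cell markers (4 genes) at 64.5 to 68.9 CPM and 62.4 to 87.1 CPM, and smooth muscle markers (5 genes) at 186 to 318 CPM and 273 to 771 CPM. The part of these cells in the results was not tested.

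**Figure D3:**
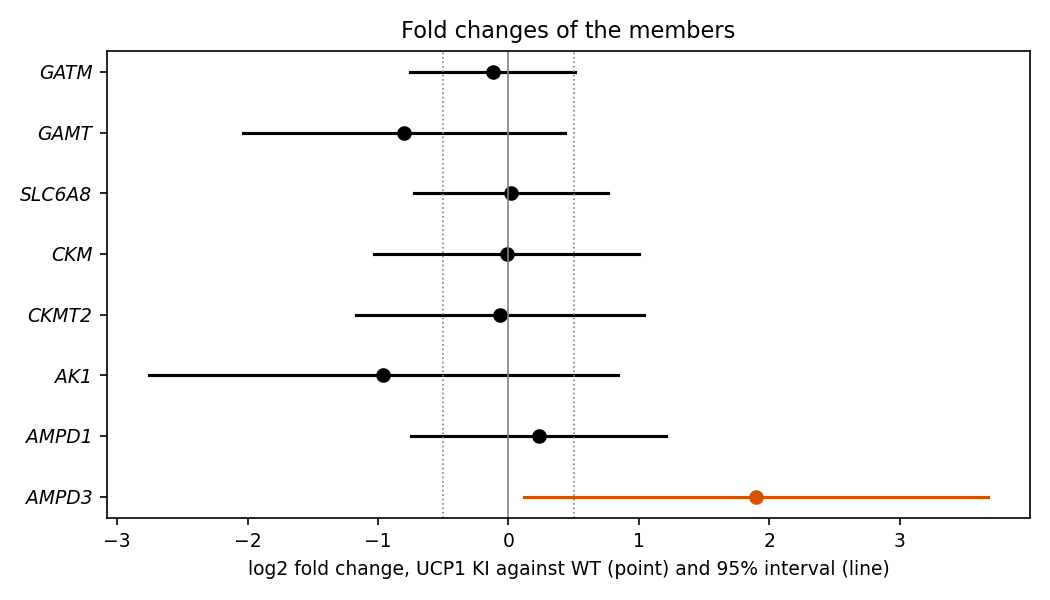
Log2 fold change of the 8 genes, UCP1 KI against WT (points), with 95% intervals from edgeR's quasi-likelihood fit (lines) and the fold change limits of -0.5 and 0.5 (dotted). *AMPD3*, in orange, is the gene past both limits, and the intervals of the other 7 genes include 0.

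By the likeness of their values over the 6 pigs, the genes nearest to *CKM* among 5681 genes with a symbol and a mean of at least 10 CPM were *ATP6AP1* (Pearson's r = 0.993), *MGARP*, *RNF7*, *SUCLA2*, a subunit of succinyl-CoA synthetase, and *FBXO40* (r = 0.971), a muscle ubiquitin ligase receptor. For *AMPD3* they included *TRIM24* (r = 0.975), *SMPDL3A*, the lysosomal membrane gene *LAMP2*, and *TMED4* (r = 0.965). None of these 9 genes passed the limits. They are the top of a long list over 6 points that share library and scaling, and are given as a description.

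The other genes of the pathway were taken by symbol. Of 16 symbols of further creatine kinases, adenylate kinases and nucleoside diphosphate kinases, 10 were matched, and 0 of the 8 genes tested passed the limits. *AK5*, an adenylate kinase best known from brain, had the highest log2 fold change among them, 1.42 (SE 0.64, unadjusted p = 0.0582 and adjusted p = 0.612 from edgeR). Its levels were 0.647, 1.46 and 0.874 CPM in KI replicates 1 to 3 and 0.165, 0.621 and 0.334 CPM in WT replicates 1 to 3, with every KI pig above every WT pig but few counts, 6 to 52 per library. *AK6* had the lowest, -0.29 (adjusted p = 0.838). The median over the 8 genes was 0.14, and 0.40 with library size only, where 1 gene passed. Of these 8 genes 1, *AK5*, had groups without overlap, beside 15.3% of all genes tested.

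Of 21 symbols of the purine nucleotide cycle and of adenine nucleotide breakdown and salvage, 18 were matched, and 1 of the 17 genes tested (5.88%) passed the limits. This was *NT5C2*, a cytosolic nucleotidase that prefers IMP, the product of the AMP deaminases. It was at 96.4, 156.8 and 109.6 CPM in KI replicates 1 to 3 and at 199 CPM, 242 CPM and 157.1 CPM in WT replicates 1 to 3, so the groups stayed apart by a small margin between KI replicate 2 and WT replicate 3. In all, 4 of the 17 genes, in both directions, had groups without overlap, beside 15.3% of all genes tested. The log2 fold change of *NT5C2* was -0.72 (SE 0.29, unadjusted p = 0.0392 and adjusted p = 0.603 from edgeR), and the count of genes past the limits was 0 with library size only, without KI replicate 3 and without WT replicate 2, and 2 without WT replicate 3. *NT5E*, the nucleotidase of the cell surface, had the lowest value, -0.80 (adjusted p = 0.701), and *XDH*, which makes uric acid, the highest, 1.43 (SE 1.31), from 0 to 22 counts per library. The median was -0.26 over the 17 genes, and -0.01 with library size only.

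Among 11 genes of methyl group and arginine metabolism, which make or use the substrates of creatine synthesis, 10 were tested and 1 (10%) passed the limits. *ASL*, argininosuccinate lyase, was at 5.05, 4.21 and 4.56 CPM in KI replicates 1 to 3 and at 6.97, 12.1 and 5.44 CPM in WT replicates 1 to 3, lower in every KI pig. Its log2 fold change was -0.83 (SE 0.35, unadjusted p = 0.0448 and adjusted p = 0.603 from edgeR), and no gene of the list passed without KI replicate 1, KI replicate 2 or WT replicate 2, while 2 did without WT replicate 3. Groups without overlap were seen for 3 of the 10 genes, in both directions, beside 15.3% of all genes tested. *MAT2A*, which makes the methyl donor S-adenosylmethionine, had the highest log2 fold change, 0.79 (unadjusted p = 0.0585 and adjusted p = 0.612), with 184 CPM in KI replicate 1, 110.2 CPM in KI replicate 2 and 70.5 CPM in KI replicate 3, against 65.2 to 74.7 CPM in WT pigs. *ARG2*, a mitochondrial arginase, had the lowest, -0.90 (SE 0.76, adjusted p = 0.768), from 8 to 40 counts per library. The median of -0.18 became 0.07 with library size only.

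**Figure D4:**
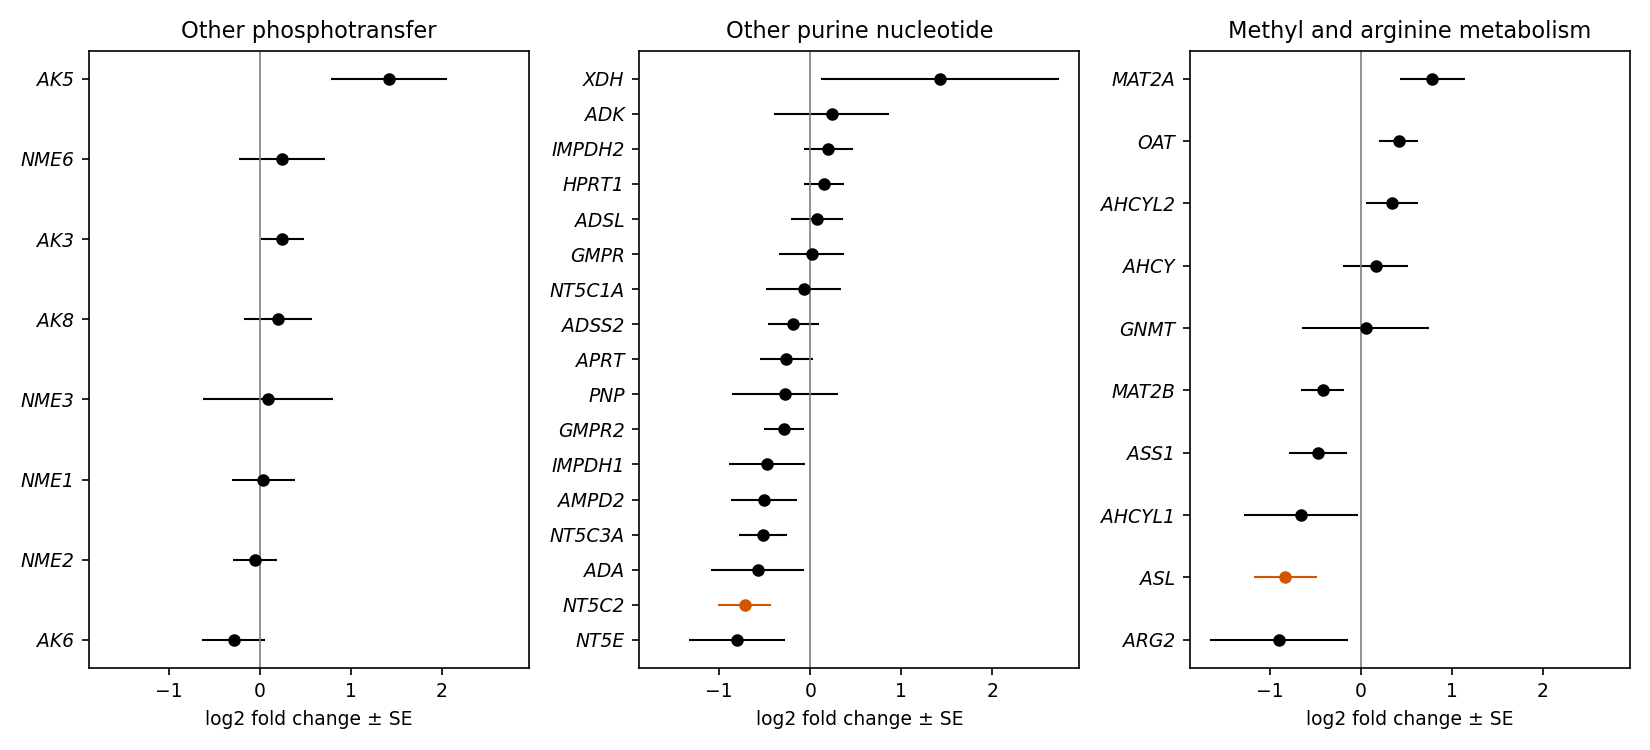
Log2 fold change, UCP1 KI against WT, ± SE from edgeR for the tested genes of 3 lists, other phosphotransfer genes (8), other purine nucleotide genes (17) and genes of methyl group and arginine metabolism (10). *NT5C2* and *ASL*, in orange, are the genes past both limits, and both are lower in KI pigs.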

How the data were processed

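RNA-seq of longissimus dorsi was analysed for 3 UCP1 KI and 3 WT libraries. The submitters' notes name FastQC 0.11.2, Trimmomatic 0.36, HISAT2 2.0, StringTie 1.3.3b and the build Sscrofa11.1, while the counting program, annotation release and strand setting are not given in the sources used here. The authors deposited raw counts per Ensembl gene without normalization. Labels number the replicates without naming animals, so p values measure the spread between these libraries. Symbols came from a table of Ensembl names, and positions from RefSeq by symbol.

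Counts were filtered with filterByExpr, scaled with TMM and tested two-sided with edgeR 4.0.16 (quasi-likelihood F test, R 4.3.3, condition as the only term, common dispersion 0.178), with Benjamini-Hochberg adjustment over all 13402 genes tested. SE is the absolute log2 fold change divided by the square root of F, and 95% intervals use the t distribution of the fit. Ratios and single genes on log2(CPM + 1) were compared by exact permutation. Named genes were all members, then per list each gene past the limits and the extremes, and for *CKM* and each member past the limits the 5 genes most correlated with it, of which 1 is not reported here. The members and lists were chosen with earlier results of these data known. Alternatives were median-of-ratios and upper quartile factors, library size only, 2 other filters, DESeq2 1.42.0, the replicate block, no fold change limit and each replicate left out. The procedure was run on counts simulated with the common dispersion for every gene. That simulation does not hold the spread of single genes between these pigs, so it does not show how the tests perform here. Ratios to the fast fibre genes were added after seeing the data. Correlations used log2(CPM + 1).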

Additional observations from a re-analysis of the deposited data

How the results depend on the processing

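*AMPD3* was the member past both limits under the other scalings, filters and DESeq2, with log2 fold changes of 1.84 to 2.19, and it was lost with the replicate block (1.54, 0 members past the limits) and in 5 of the 6 fits that left out a pig, so that leaving out a pig gave 0 to 1 members. The labels do not say whether the replicate numbers pair the pigs. Deviations of same-numbered pigs correlated at 0.00, 0.09 and 0.28, and those of differently numbered pigs at -0.20 to 0.13. Not every pig correlated best with its own number. With 3 pigs in each group, these correlations cannot decide whether the numbers pair the pigs. With the block, 1114 genes passed, in place of 1097, 1 of the other phosphotransfer genes, 1 of the purine genes and 0 of the methyl and arginine genes did, the log2 fold change of *CKM* was 0.020, and the differences in the 4 ratios were by construction the same (-0.22, -1.46, 1.10 and -0.75). With each pig left out they ran from -0.54 to 0.13 for *CKMT2* to *CKM*, from -2.03 to -0.62 for *AK1* to *CKM*, from 0.51 to 2.06 for *AMPD3* to *AMPD1* and from -1.18 to -0.35 for *GAMT* to *GATM*. With each pig left out, the genes past the limits numbered 678 (without KI replicate 2) to 1541, the other phosphotransfer genes 0 to 2, the purine genes 0 to 2 and the methyl and arginine genes 0 to 2. With library size only, 1 phosphotransfer and 0 purine genes passed, and the values of *CKM*, *CKMT2* and *GATM* were 0.23, 0.086 and 0.12. All genes with any count gave 2 methyl and arginine genes and 0.0038 for *CKM*, and DESeq2 gave 2 methyl and arginine genes with either filter. *SLC6A8* was -0.0052 with upper quartile factors.

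Signs also changed with a pig left out, with values from -0.18 to 0.37 for *CKM*, -0.60 to 0.28 for *CKMT2*, -0.25 to 0.013 for *GATM*, -0.18 to 0.35 for *SLC6A8* and -0.17 to 0.56 for *AMPD1*. Without KI replicate 1, *SLC6A8* was -0.14. Without KI replicate 2, *CKM*, *CKMT2* and *GATM* were 0.18, 0.28 and 0.013. Without KI replicate 3, *CKMT2* was 0.01 and *AMPD1* -0.17. Without WT replicate 1, *CKMT2*, *SLC6A8* and *AMPD1* were 0.12, -0.05 and -0.04. Without WT replicate 2, *SLC6A8* was -0.18, and without WT replicate 3, *CKM* and *CKMT2* were 0.37 and 0.02. *AK1* and *GAMT* kept their sign and stayed short of the limits under all 14 alternatives to the reported fit. The cause of these changes was not tested. Few counts limit what *AK5*, *XDH* and *ARG2* can show. The planned fits of *CKB* and of its ratio to *CKM* were not run.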
